A study of Caenorhabditis elegans with 15 samples.

Results

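Transcript levels at 4 h were compared with those at 2 h in a time course of C. elegans embryos, using 6 of its 15 arrays. The groups were the 3 arrays titled 2A, 2B and 2C and the 3 titled 4A, 4B and 4C, called 2 h A to 4 h C here, and all 22548 probe sets other than the manufacturer's controls were tested. All embryos came from N2 hermaphrodites, the wild-type strain, that had received double-stranded RNA for mex-1, lit-1 and pal-1 in the body cavity. This treatment was common to both groups and untreated embryos were not analysed here. Embryos dissected at the stage of 2 to 4 cells were left at room temperature for 2 h or 4 h after collection, and total RNA was hybridised to 1-colour Affymetrix arrays. The number of embryos per sample is not given in the labels, which call the samples independent without naming separate mothers. What the p-values measure is thus the spread among these samples, and it may be technical. The 3 arrays at 3 h are described beside the comparison and not tested.

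As background, the first transcripts of the worm embryo are supplied by the mother, and early blastomeres then switch on short-lived zygotic genes that set their fates before regulators of single tissues take over. The blastomere MS makes much of the pharynx and body wall muscle. Loss of mex-1 gives descendants of the anterior blastomere AB an MS-like fate, the kinase LIT-1 lets the daughters of a division take different fates, among them MS and the gut precursor E, and the homeobox protein PAL-1 specifies the lineages of C and D. The series title names fate control in the MS lineage as the subject.

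Levels are log2 values as deposited, and a call means that limma's moderated test, adjusted by Benjamini-Hochberg across the whole array, gave p under 0.05. A mark of 3.26, the highest value of 12 control probe sets for an RNA absent from worms, was used to say that a level was at background. The highest value of all 27 bacterial control probe sets was 5.41, so levels between these values are less surely above background. Array medians ran from 3.17 to 3.39 over the 6 arrays. The correlation across probe sets, which are not replicates, averaged 0.974 among the 2 h arrays, 0.966 among the 4 h arrays and 0.912 between them. RNA added before hybridisation averaged 9.54 to 10.31 at 2 h and 9.24 to 10.86 at 4 h. The difference between 3' and 5' probe sets of GAPDH, a measure of RNA integrity, was 1.42 to 2.18 at 2 h and 0.398 to 1.53 at 4 h. For actin it was larger, 4.15 to 5.48 at 2 h and 3.85 to 4.96 at 4 h. The part of RNA integrity in the results was not tested.

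The 3 injected genes did not pass the test. mex-1 read 6.55, 7.04 and 6.20 at 2 h on arrays A, B and C and 4.70, 6.5 and 5.74 at 4 h. pal-1 read 8.59, 9.20 and 8.11 at 2 h and 5.85, 8.24 and 7.30 at 4 h, and lit-1 had means of 4.34 and 4.33. The groups overlapped for all 3 genes, and limma's differences were -0.95, -1.50 and -0.01, with adjusted p of 0.408, 0.305 and 0.992. Markers of adult tissue were not called. Of 5 yolk protein and adult gut genes 0 were called by limma, 1 passed an unadjusted p under 0.05, and their summed linear level was 62.2 to 70.8 at 2 h and 52.9 to 58.7 at 4 h, with 2 or 3 of the 5 at background on every array. Of 30 sperm genes 0 were called, 3 passed an unadjusted p under 0.05, and the sum was 594 to 788 at 2 h and 603 to 634 at 4 h. Between 5 and 10 of the 30 were at background on the 2 h arrays and 2 to 5 on the 4 h arrays, so most read above it.

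Between 2 h and 4 h more genes fell than rose, and the falls were larger. Of 17138 genes, each read from 1 probe set, limma called 586 lower at 4 h (3.42%) and 343 higher (2.00%). The median fall of the called genes was 2.07 log2 units and the median rise was 1.49, while the median difference over all genes was 0.07. A fall of at least 8-fold was seen for 173 genes and a rise of that size for 62. At 32-fold the counts were 49 and 8. All 586 lower and all 343 higher genes had no overlap between the arrays of 2 h and 4 h. A lack of overlap given for a called gene below therefore adds no support to its call. Counted over probe sets, 709 (3.14%) were lower and 412 (1.83%) higher. In bulk embryos, fewer cells expressing a gene and less RNA per cell cannot be told apart. Calls depended on single arrays, as 494 of the 929 called genes (53.2%) kept their call whichever array was left out. Scaling mattered as well, since 36.8% of called probe sets were higher on the deposited scale and 21.1% with each array centred on the added control RNA, whose median over all probe sets was -0.14 in place of 0.07. Quantile normalization moved the split the other way, to 598 higher and 695 lower. The plot of 4 h against 2 h levels shows both groups.

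**Figure D1:**
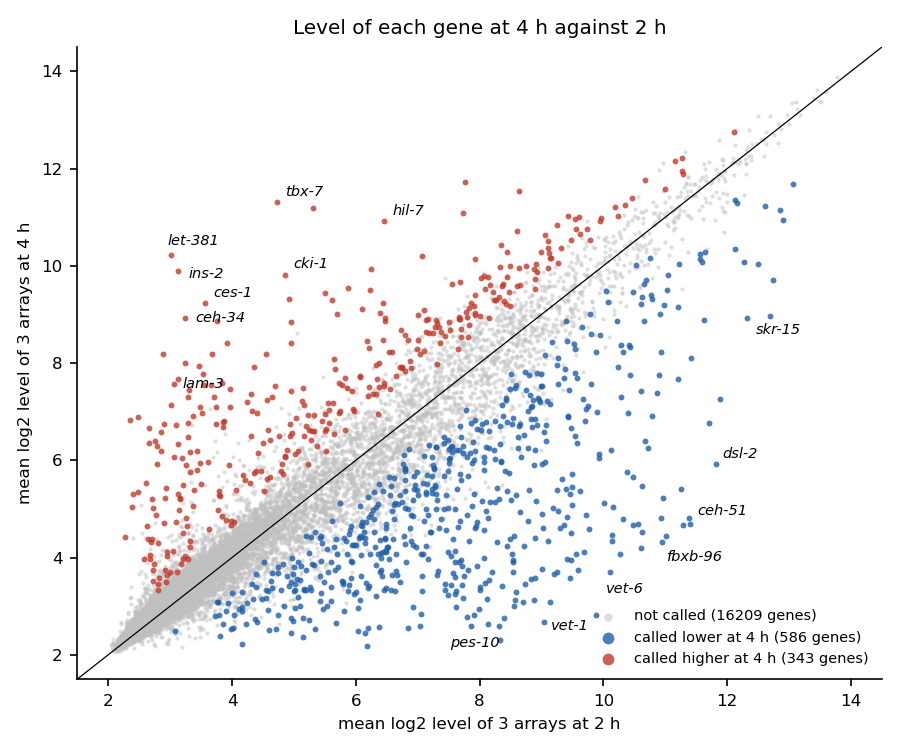
Mean log2 level of 3 arrays at 4 h (vertical) against 2 h (horizontal) for 17138 genes; the diagonal marks equal levels. The 586 genes called lower reach farther from the diagonal than the 343 called higher, and ceh-51 and fbxb-96 at the lower right and let-381 and ins-2 at the upper left are among the largest changes.

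Several short-lived zygotic transcripts fell between 2 h and 4 h. The homeobox gene ceh-51, which acts in the MS blastomere, read 10.69, 11.64 and 11.81 at 2 h on arrays A, B and C and 4.89, 4.86 and 4.72 at 4 h. Every 4 h array lay far below every 2 h array, and ceh-51 fell by 6.56 ± 0.29 (SE), or 94.2-fold, with a limma adjusted p of 0.000102. At 3 h its mean was already 6.12, which is 80.2% of the way to the 4 h mean. The 4 other measured genes that specify MS and E did not pass the test. The GATA factor gene med-1 and the T-box gene tbx-35 were at background at both times, with means of 2.68 and 2.95 for med-1 and 2.53 and 2.57 for tbx-35. The gut GATA factor genes end-1 and end-3 read 3.81 and 4.82 at 2 h and 4.06 and 5.17 at 4 h.

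Genes known as very early transcripts of the embryo showed the same steep loss, 4 of the 5 measured being called lower. vet-1 read 9.26, 8.8 and 9.08 at 2 h and 2.75, 2.47 and 2.80 at 4 h, the latter below the mark on all 3 arrays. pes-10, a marker of the onset of embryonic transcription, read 7.99, 7.60 and 7.98 at 2 h and 2.50, 2.43 and 2.84 at 4 h. Neither gene had any overlap between times, and at 4 h both were at background, where log2 values compress a loss. vet-1 fell by 6.38 ± 0.16 (SE), vet-6 by 6.41 ± 0.23, vet-2 by 6.06 ± 0.13 and pes-10 by 5.26 ± 0.17, with limma adjusted p of 1.89e-05, 4.68e-05, 1.76e-05 and 3.38e-05. The other probe sets of vet-1 and vet-2 were called lower too, with smaller falls of 4.53 and 3.49. The pace differed in the 3 h means. pes-10 stood at 2.80 at 3 h, already at its 4 h level, and vet-2 at 5.70, about midway between its 2 h and 4 h levels. The forkhead gene pes-1, the remaining member, had a difference of -0.91 (adjusted p = 0.177) and was not called.

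The sdz genes, named for zygotic expression that depends on SKN-1, the maternal factor that specifies MS and E, were mostly lower at 4 h. Of 32 measured, 12 were called lower (37.5%) and 0 higher, beside 3.42% and 2.00% over all genes, with a list median of -0.54. A difference below 0 was found for 27 of the 32, and 17 were lower at an unadjusted p under 0.05. The called members fell by between 1.39 (sdz-27) and 5.81 (sdz-4) log2 units. sdz-4 read 10.39, 10.50 and 10.56 at 2 h, 8.08, 8.07 and 7.70 at 3 h and 4.74, 4.83 and 4.47 at 4 h, a stepwise loss with no overlap between any of the 3 times. sdz-30 read 8.28, 8.30 and 7.82 at 2 h and 2.62, 2.57 and 2.74 at 4 h, and so went to background. The median share of the fall reached at 3 h was 64.3% over the 12 called members. The falls of sdz-9, sdz-28, sdz-30, sdz-14 and sdz-33 lay between 5.45 and 5.55. Of the 32, 4 were at background on all 6 arrays and could show no loss.

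Taking the 4 lists of early zygotic genes together, 17 of 48 measured genes (35.4%) were called lower and 0 higher, beside 3.42% and 2.00% over all genes, and 39 of the 48 exceeded the mark on at least 1 array. The median over the 48 was -0.37. With the array titled 1 h B placed at 2 h, as its time tag has it, 11 of the 48 were called lower. Should the title be right and the tag wrong, this setting mixes a 1 h array into the 2 h group, here and below. The fourth list, T-box and Notch target genes of the AB lineage, contributed 0 of 6 called genes, and 4 of those 6 had a 2 h mean at background. The values by array are shown for 12 falling genes picked from those called lower, so the gap between their times follows from that choice.

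**Figure D2:**
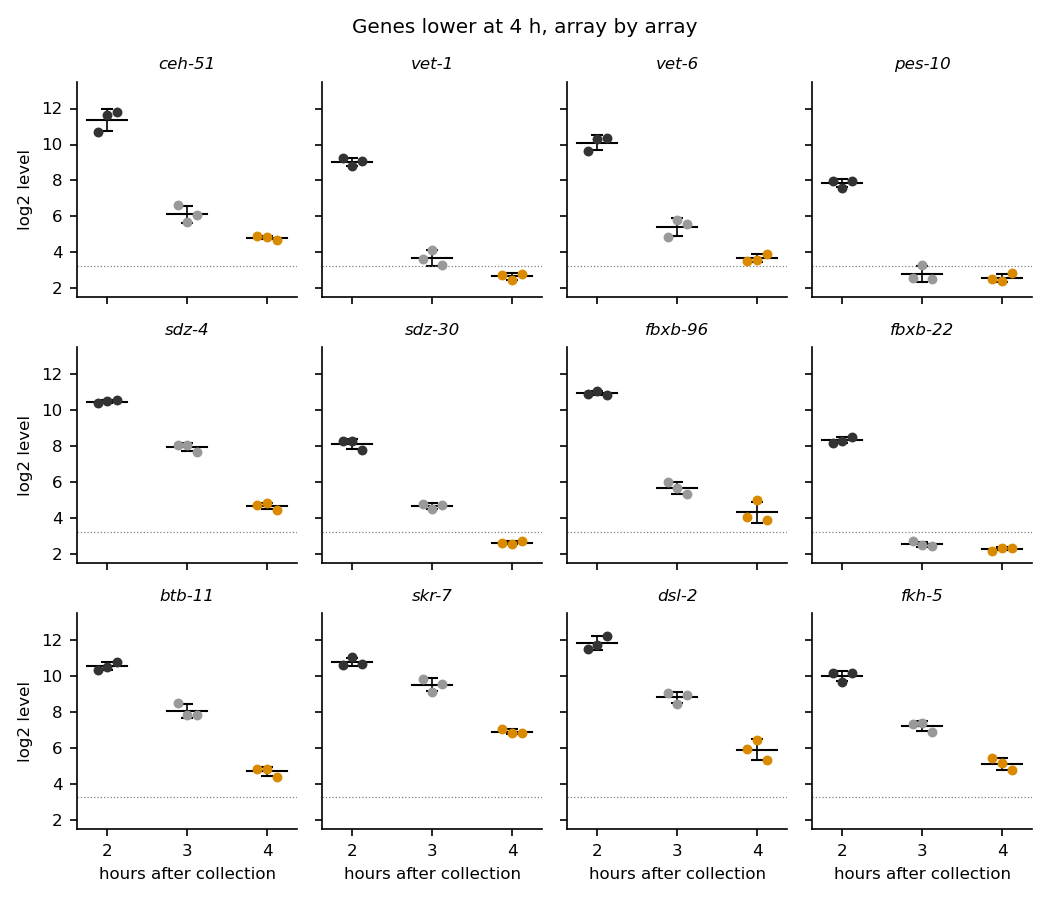
Log2 level (vertical) on each of 3 arrays (points), with mean and SD (bars), at 2, 3 and 4 h after collection for 12 genes called lower at 4 h; the dotted line is the background mark of 3.26. In each panel the 3 arrays at 4 h lie below the 3 at 2 h, and for fbxb-22 and pes-10 the 3 h arrays are already near the 4 h level.

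The broadest loss was in the F-box gene family called fbxb. F-box proteins are the substrate receptors of SCF ubiquitin ligases, which they join through a Skp1-like adaptor, and the worm has an unusually large set of them. Of 95 fbxb genes 64 were called lower (67.4%) and 2 higher, against 3.42% lower over all genes, and the family median was -2.50. The 64 had a median level of 7.88 at 2 h, 4.95 at 3 h and 3.63 at 4 h, and 43 of them fell at least 8-fold. fbxb-96 read 10.93, 11.07 and 10.84 at 2 h and 4.05, 5.01 and 3.91 at 4 h. fbxb-22 read 8.18, 8.30 and 8.52 at 2 h, 2.71, 2.49 and 2.45 at 3 h and 2.2, 2.36 and 2.33 at 4 h. Both went from levels well above background to near or under it, fbxb-22 by 3 h. fbxb-96 fell by 6.62 ± 0.29 (SE) and fbxb-22 by 6.03 ± 0.13, 98.6-fold and 65.6-fold, with limma adjusted p of 0.000101 and 1.76e-05.

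Members of the family did not all behave alike. fbxb-15 read 10.51, 10.40 and 10.37 at 2 h and 8.33, 8.28 and 8.41 at 4 h, so it fell by 2.09 while staying far above background. fbxb-66, with a 2 h mean of 10.59, had a difference of only -0.17 (adjusted p = 0.769). fbxb-77 went the other way, from 5.11, 4.97 and 5.35 at 2 h to 8.06, 7.37 and 7.05 at 4 h, and rose by 2.35 ± 0.27 (SE) without overlap between the times. fbxb-70 rose by 1.60, a call that ended without 2 h B or 2 h C. Of the 29 members not called, 21 had a difference below 0 and 5 were at background on all 6 arrays. Placing array 1 h B at 2 h by its tag left 31 of the 66 fbxb calls, both directions counted. Close copies of a gene can share probes. Among 83 fbxb genes read from a probe set without the manufacturer's suffix for possible cross-hybridisation, 54 were called lower.

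Calls in other ubiquitin ligase families were more often lower than higher, as they were over all genes (3.42% lower and 2.00% higher). Of 44 fbxc F-box genes 9 were lower (20.5%) and 2 higher (4.5%), with a median of -0.02. fbxc-26 read 8.51, 9.50 and 8.66 at 2 h and 3.66, 3.73 and 3.33 at 4 h, while fbxc-20 rose from 2.87, 2.58 and 2.54 to 6.84, 6.13 and 6.11. These changes went in opposite directions within 1 named family. Of 171 fbxa genes only 4 were lower (2.3%) and 1 higher, close to the share over all genes, and 111 of the 171 were at background on all 6 arrays. The skr genes, which encode Skp1-related adaptors of SCF ligases, and the btb genes, whose BTB domain is that of adaptors for the cullin CUL-3, were singled out after their values were seen. Of 19 skr genes 10 were lower (52.6%) and 1 (skr-21) higher (5.3%), and of 18 btb genes 6 were lower (33.3%). skr-7 read 10.63, 11.06 and 10.67 at 2 h, 9.84, 9.14 and 9.58 at 3 h and 7.06, 6.86 and 6.82 at 4 h. Its steps lay clear of each other, and its total fall was 3.88 ± 0.16 (SE, limma adjusted p = 7.43e-05). skr-8, skr-9 and skr-15 fell by 3.02, 3.72 and 3.39 and still read 9.72, 8.97 and 8.93 at 4 h.

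skr-1, the main Skp1 orthologue, had a difference of -0.52 (adjusted p = 0.0861) and was not called. btb-11 read 10.35, 10.53 and 10.81 at 2 h and 4.86, 4.85 and 4.38 at 4 h. btb-8 and btb-10 were alike, falling by 5.80 and 5.67, and all 3 were without overlap between the times. Of 38 bath genes, which join a BTB to a MATH domain, 2 were lower (5.3%) and 1 higher (2.6%). The shares over all genes were 3.42% and 2.00%, and bath-31 fell by 4.46. Of 6 cullin genes, the scaffolds of these ligases, 0 were called by limma and 2 passed an unadjusted p under 0.05, both lower. cul-1, the SCF scaffold, read 5.95, 8.03 and 8.29 at 2 h and 4.88, 4.23 and 5.30 at 4 h and had a difference of -2.62 (adjusted p = 0.0855).

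**Figure D3:**
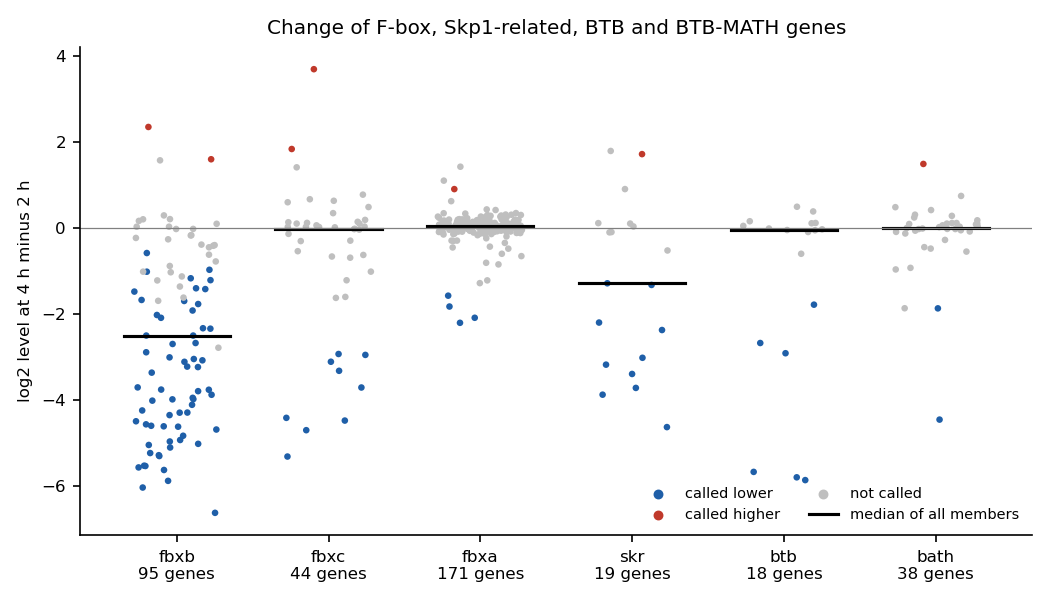
Log2 level at 4 h minus 2 h (vertical) for each gene (points) of 6 families, coloured by limma call, with the median of all members (black line). The fbxb median is -2.50 with 64 of 95 genes called lower, whereas the fbxa genes gather near 0.

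The dsl genes were singled out after their values were seen. The products of dsl-1 and dsl-2 resemble the Delta-type ligands of Notch. dsl-2 read 11.48, 11.72 and 12.25 at 2 h and 5.95, 6.47 and 5.33 at 4 h, and dsl-1 read 11.31, 10.999 and 11.43 and 5.42, 5.45 and 5.36. Both remained above the mark of 3.26 at 4 h, though near 5.41, the highest value of all bacterial controls. They fell by 5.90 and 5.84. Of 6 dsl genes these 2 were lower (33.3%) and dsl-3 was higher (16.7%), beside 3.42% and 2.00% over all genes. The rise of dsl-3 was 3.13 ± 0.49. dsl-3 read 4.60, 3.81 and 3.49 at 2 h and 7.83, 6.12 and 7.33 at 4 h, and its call ended without 2 h B, 2 h C or 4 h C.

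Calls among transcription factor families ranged in size. The forkhead gene fkh-5 read 10.20, 9.69 and 10.15 at 2 h and 5.42, 5.18 and 4.76 at 4 h and fell by 4.89 ± 0.22 (SE) (limma adjusted p = 0.000104), the 1 call among 7 fkh genes. nhr-2, a nuclear receptor gene of the early embryo, read 7.83, 8.79 and 8.85 at 2 h and 4.38, 5.0 and 3.73 at 4 h. The times were separate for both genes, and nhr-2 fell by 4.12 ± 0.40. Of its 3 other probe sets 2 gave falls past the threshold, of 4.34 and 2.97, and 1 gave -0.04. Of 255 nhr genes 4 were higher (1.6%) and 2 lower (0.8%), below the 2.00% and 3.42% over all genes. Of the 255, 176 had a 2 h mean at background. The T-box genes tbx-43 and tbx-11 fell by 3.62 and 1.44, the second call ending without 2 h C or 4 h B. ceh-40, a cofactor gene of the Exd/Pbx type, fell by 2.00, and mls-2, an HMX homeobox gene of mesoderm, fell by 1.46. ceh-40 lost its call without 2 h B or 2 h C, and 2 other mls-2 probe sets, at -0.02 and -1.52, did not pass the threshold.

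Some regulators of mesoderm and pharynx rose. The largest rise of all genes was that of let-381, a forkhead gene with a role in mesoderm. It read 2.93, 2.97 and 3.15 at 2 h, under the background mark, 8.96, 8.87 and 9.82 at 3 h and 10.05, 10.56 and 10.02 at 4 h. No array of a later time overlapped those at 2 h, and let-381 rose by 7.2 ± 0.18 (SE), or 147-fold, with a limma adjusted p of 1.89e-05. The other let-381 probe set rose by less, 3.24 (limma adjusted p = 0.000495). hnd-1, the bHLH gene of the Hand type in mesoderm, read 6.46, 5.38 and 6.45 at 2 h, 6.70, 5.92 and 6.74 at 3 h and 9.14, 9.06 and 9.15 at 4 h. It was thus flat over the first hour and higher on every 4 h array, by 3.02 ± 0.30. Of 11 mesoderm and muscle regulators these 2 were higher (18.2%) and mls-2 was lower (9.1%), beside 2.00% and 3.42% over all genes. The myogenic factors hlh-1 and unc-120 stayed low, with 4 h means of 3.28 and 3.73, and their differences of 0.55 and 0.81 were not called.

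Of 12 pharynx regulators 3 were higher and 0 lower. ceh-34, a homeobox gene of the sine oculis type in pharyngeal cells and mesoderm, read 3.83, 2.65 and 3.23 at 2 h, 9.14, 8.74 and 9.92 at 3 h and 9.07, 9.18 and 8.55 at 4 h. ceh-22, the NK-2 gene of pharyngeal muscle, read 3.15, 2.86 and 3.05 at 2 h, 3.15, 3.08 and 3.11 at 3 h and 7.78, 8.09 and 5.53 at 4 h. ceh-34 had therefore completed its rise by 3 h, and ceh-22 was still at background then. ceh-34 rose by 5.69 ± 0.33 (SE) and ceh-22 by 4.11 ± 0.65, with limma adjusted p of 0.000259 and 0.0171. The lower value of 4 h C widened the spread of ceh-22, whose call ended when 2 h B, 2 h C, 4 h A or 4 h B was left out. Its other probe set rose by 4.09 (adjusted p = 0.00898). The T-box gene tbx-2, the third member, rose by 1.45 ± 0.20, a call that ended without 2 h B, and its other probe set, at 1.21, did not pass the threshold. pha-4, the FoxA gene of the pharynx, was already present, with means of 7.01 at 2 h and 6.85 at 4 h and a difference of -0.16 (adjusted p = 0.917). eya-1, the Eyes absent gene whose product partners proteins of the sine oculis type, had means of 8.29 and 7.89 and was not called. The listed gene ceh-32 was not called at 1.61 (limma adjusted p = 0.122). Its other probe set was called higher, by 0.94 (limma adjusted p = 0.00502).

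Further regulators of these families had risen by 3 h. tbx-7, a T-box gene, read 5.19, 3.78 and 5.21 at 2 h, 11.82, 11.69 and 11.84 at 3 h and 10.92, 11.71 and 11.29 at 4 h. ceh-27, an NK-2 homeobox gene, read 3.89, 2.86 and 3.17, 9.50, 9.05 and 9.19 and 8.01, 7.72 and 6.60. tbx-7 kept its 3 h level, whereas all 3 arrays of ceh-27 at 4 h lay below those at 3 h, a difference that was not tested. Against 2 h they rose by 6.58 ± 0.43 and 4.13 ± 0.43, with limma adjusted p of 0.000412 and 0.00306. Over the ceh homeobox family 8 of 60 genes were higher (13.3%) and 4 lower (6.7%), beside 2.00% and 3.42% over all genes. ceh-13, the anterior Hox gene of the labial type, rose from 2.94, 2.66 and 2.76 to 6.62, 6.42 and 5.83, by 3.50 ± 0.22. Of 9 Hox genes and cofactors 1 more was called, ceh-40, and 5 of the 9 had a 4 h mean at background. The listed gene unc-62 was not called, but its other probe set was, higher by 1.26 (limma adjusted p = 0.023).

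Of 10 proneural genes 2 were higher and 0 lower. The atonal-type gene lin-32 read 5.45, 4.21 and 4.26 at 2 h, 4.84, 4.62 and 4.76 at 3 h and 7.21, 7.06 and 7.64 at 4 h. hlh-3, of the achaete-scute type, read 5.80, 5.73 and 5.46 at 2 h and 8.19, 7.37 and 8.09 at 4 h. The 4 h arrays of both lay above all others, with rises of 2.66 ± 0.36 and 2.22 ± 0.24. ngn-1, the neurogenin gene, had means of 6.71, 4.23 and 5.78 at 2, 3 and 4 h and a difference of -0.93 that was not called (adjusted p = 0.0551). Of 30 neuron identity regulators 3 were higher and 0 lower. The Otx-type genes ceh-37 and ttx-1 rose by 2.83 ± 0.12 and 1.49 ± 0.19, and unc-30, a Pitx-type gene of GABA neurons, by 1.64 ± 0.25. The other probe sets of ceh-37, ttx-1 and unc-30, at 2.49, 0.44 and 1.94 (adjusted p = 0.104, 0.297 and 0.0502), did not pass the threshold. Of the 3 neuron identity calls 1 held with arrays centred on the added control RNA. The listed gene sox-2 was not called, but its other probe set was, higher by 0.75 (limma adjusted p = 0.0314). ceh-37 had completed 58.6% of its rise at 3 h. ttx-1 and unc-30 remained low at 4 h, at 4.30 and 4.73, and the call of unc-30 ended without 2 h B, 2 h C or 4 h C. ceh-8, an Rx-type homeobox gene, rose by 3.00 ± 0.18, all of it after 3 h, when its mean was 3.12 against 3.06 at 2 h.

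Of 14 epidermal regulators 0 were called by limma and 1 passed an unadjusted p under 0.05. That gene was elt-1, the GATA factor of epidermal fate, which read 7.58, 6.75 and 6.12 at 2 h and 5.62, 4.75 and 4.91 at 4 h, with a difference of -1.72 (adjusted p = 0.075). Of 5 gut regulators the only call was ceh-60, a Pbx-type gene, which rose by 1.38 to 4.06. Its other probe set, at 0.29 (adjusted p = 0.667), did not pass the threshold, and the call was lost with arrays centred on the added control RNA and with the replicate block. elt-2, the main gut GATA factor, stayed near background with means of 3.74 and 4.01. Of 5 genes that regulate the lineages of C and D 0 were called, and 2 passed an unadjusted p under 0.05, 1 in each direction. Over the 8 lists of tissue regulators 12 of 96 genes (12.5%) were higher and 2 lower, beside 2.00% and 3.42% over all genes, with a median difference of 0.22. Of these 96, 27 still had a 4 h mean at background.

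**Figure D4:**
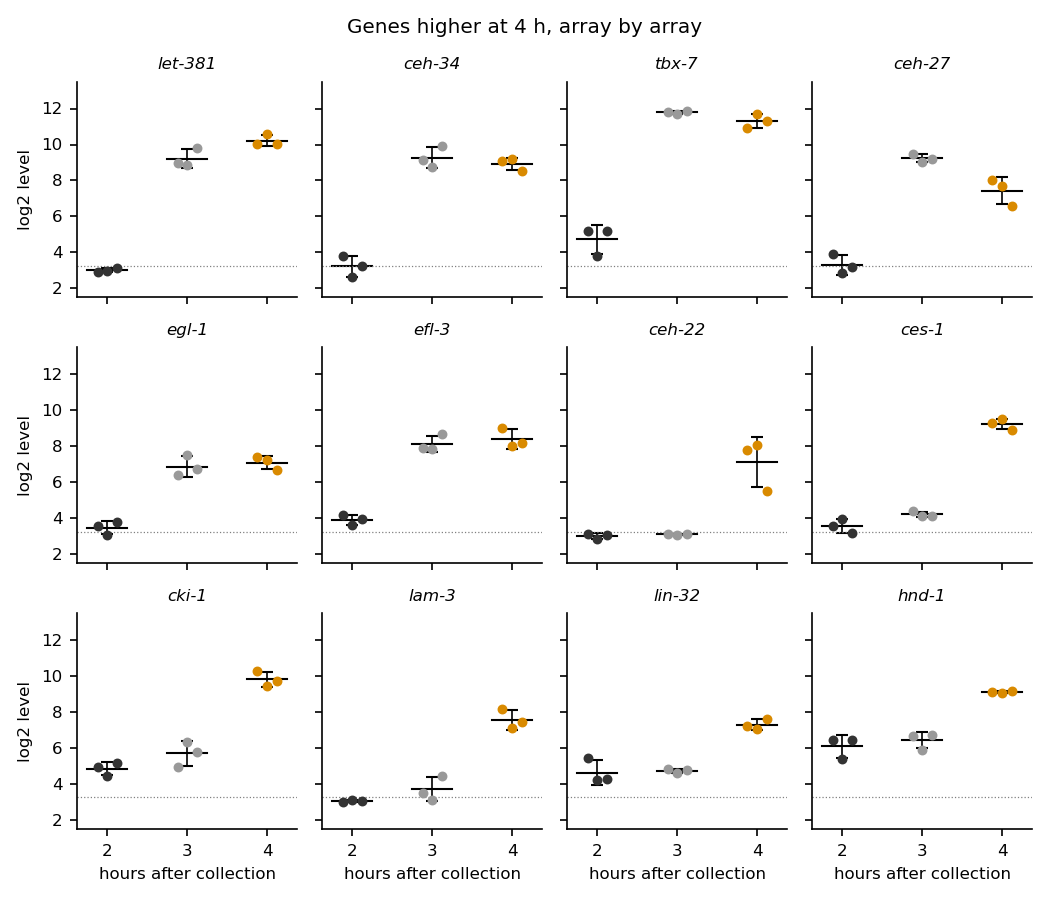
Log2 level (vertical) on each of 3 arrays (points), with mean and SD (bars), at 2, 3 and 4 h after collection for 12 genes called higher at 4 h; the dotted line is the background mark of 3.26. let-381, ceh-34, tbx-7, ceh-27, egl-1 and efl-3 are high at 3 h, whereas ceh-22, ces-1, cki-1, lam-3, lin-32 and hnd-1 rise between 3 h and 4 h.

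Some genes that control programmed cell death rose. Of 28 cell death genes 5 were called higher (17.9%) and 1 lower, beside 2.00% and 3.42% over all genes, while the list median was -0.01, with 14 differences above 0 and 14 below. egl-1, the BH3-only gene that starts cell death, read 3.60, 3.06 and 3.80 at 2 h, 6.39, 7.49 and 6.74 at 3 h and 7.38, 7.21 and 6.69 at 4 h. ces-1, a Snail-type repressor of egl-1 in certain neural cells, read 3.58, 3.95 and 3.17 at 2 h, 4.38, 4.12 and 4.14 at 3 h and 9.28, 9.51 and 8.92 at 4 h. ces-2, a bZIP gene that acts upstream of ces-1, read 4.28, 3.28 and 3.73 at 2 h and 10.36, 7.79 and 8.43 at 4 h. egl-1 was thus high 1 h before the other 2 genes, both of which were low on all 3 h arrays. The rises were 3.61 ± 0.26 for egl-1, 5.67 ± 0.24 for ces-1 and 5.10 ± 0.66 for ces-2, with limma adjusted p of 0.000585, 9.31e-05 and 0.00765.

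The other cell death genes called higher were ttr-52, which helps phagocytes recognise dying cells, and cps-6, the mitochondrial endonuclease G. ttr-52 read 3.77, 3.43 and 3.91 at 2 h and 8.16, 7.15 and 6.61 at 4 h. nuc-1, the lysosomal DNase II that digests DNA of engulfed corpses, was the 1 member lower, with 10.50, 10.34 and 10.29 at 2 h and 7.16, 5.18 and 4.96 at 4 h. Both had separate groups, at +3.60 ± 0.39 and -4.61 ± 0.56.

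Of 42 cell cycle genes 6 were lower (14.3%) and 1 higher (2.4%), beside 3.42% and 2.00% over all genes, and the list median was -0.49. With array 1 h B placed at 2 h, 1 of the 7 calls held. cki-1, the CDK inhibitor that stops division in differentiating cells, read 4.95, 4.44 and 5.16 at 2 h, 4.97, 6.36 and 5.80 at 3 h and 10.27, 9.44 and 9.75 at 4 h. It rose by 4.97 ± 0.27 (SE), or 31.3-fold, and its other probe set rose by 6.42. The lower genes were a closely similar pair of B-type cyclins, cyb-2.2 and cyb-2.1, the phosphatase gene cdc-25.3 and the DP gene dpl-1. The replication helicase genes mcm-5 and mcm-6 were lower too. Among probe sets not chosen to stand for their gene, those of cyb-3, cdk-4 and zyg-1 were called lower. Those of cyb-1 and cdc-25.1 were not called. mcm-6 read 8.04, 8.68 and 8.49 at 2 h, 8.29, 7.79 and 8.71 at 3 h and 5.25, 6.89 and 5.21 at 4 h, and its call ended when any array but 4 h B was left out. efl-3, an E2F-type gene, rose by 4.49 ± 0.30 and read 8.14 at 3 h and 8.40 at 4 h. A variant linker histone gene, hil-7, had means of 6.46 at 2 h and 6.26 at 3 h and rose against 2 h by 4.46 ± 0.57, and its 2 other probe sets rose by 4.77 and 3.83.

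Of 135 structural genes of differentiated tissues, 3 were higher (2.2%) and 2 lower (1.5%), close to or under the shares over all genes, and 38 had a 4 h mean at background. At an unadjusted p under 0.05, 28 were higher and 9 lower, among them 9 of 22 cuticle and epidermis genes higher and 0 lower. lam-3, a laminin alpha chain of the basement membrane, read 3.01, 3.13 and 3.05 at 2 h, 3.52, 3.14 and 4.45 at 3 h and 8.18, 7.09 and 7.43 at 4 h. It rose by 4.50 ± 0.27 (SE) (limma adjusted p = 0.000305), while its other probe set, at 0.65, did not pass the threshold. sqt-3, a cuticle collagen, rose by 1.12 ± 0.22, a call that held only without 4 h C among the arrays left out in turn. col-118, another collagen gene, rose by 5.30 ± 0.37 from background. Of 128 col genes col-118 was the only one called. The muscle myosin heavy chain genes unc-54, myo-3 and myo-2 had 4 h means of 4.19, 2.34 and 3.24 and were not called. The actin genes act-4 and act-3, which share most of their sequence, moved in opposite directions, by 2.47 and -2.16. Of these 2 calls 0 held with the replicate block and 1 with array 1 h B placed at 2 h. abu-14, a pharynx gene, fell by 3.49 ± 0.31, while its other probe set gave 0.04. Lists of gut structure, epithelial junctions, neuron structure and cilium genes had 0 calls by limma among 56 genes, and at an unadjusted p under 0.05 they had 9 higher and 4 lower.

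**Figure D5:**
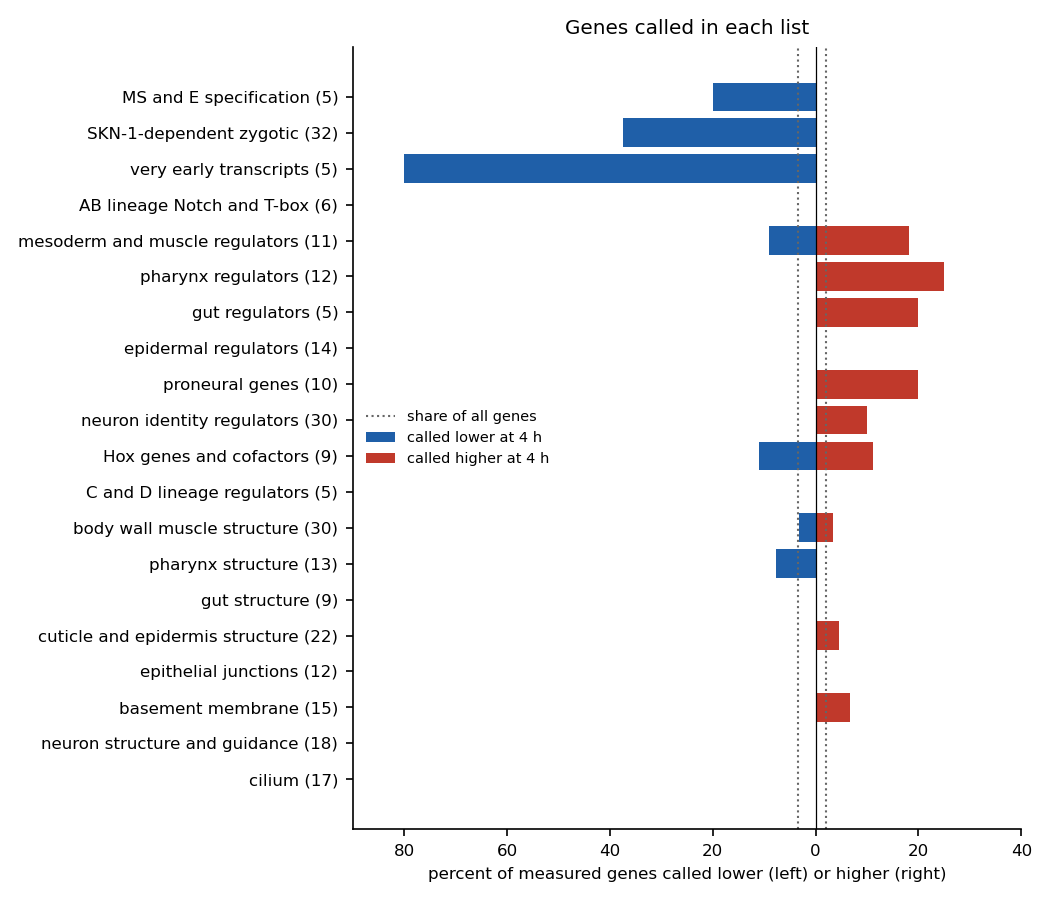
Percent of the measured genes of each list (number in brackets) called lower (left) or higher (right) at 4 h by limma; dotted lines are the shares over all genes, 3.42% and 2.00%. Calls to the left gather in the 3 lists of early zygotic genes at the top, and the lists with the highest percent to the right are pharynx (3 of 12 genes), gut (1 of 5) and proneural genes (2 of 10), followed by mesoderm and muscle (2 of 11), Hox genes and cofactors (1 of 9) and neuron identity (3 of 30).

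Of 46 maternal and germline genes 3 were lower (6.5%, beside 3.42% over all genes) and 0 higher. A difference below 0 was found for 34 of the 46, and 12 were lower and 1 higher at an unadjusted p under 0.05. Their summed linear level was 7340 to 12981 on the 2 h arrays and 5736 to 5822 on the 4 h arrays, without overlap. With array 1 h B placed at 2 h, 1 of the 3 calls held. sip-1, a small heat shock protein gene, read 10.24, 11.07 and 11.56 at 2 h and 5.36, 6.26 and 4.08 at 4 h. clec-87, a C-type lectin gene, fell by 3.92 ± 0.62 and nos-2, a Nanos gene, fell by 1.73 ± 0.17. The call of clec-87 ended without 2 h B or 2 h C. A list of 62 ribosomal protein genes, taken by a name pattern that omits some members, had a median difference of 0.04. It held 1 call, rpl-11.1, lower by 2.70. Of 45 genes with rpl names 1 was called higher (2.2%) and 2 lower (4.4%), and of 30 with rps names 0 were called.

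The 3 h arrays lay between the 2 times for most called genes. The 3 h mean was between the 2 h and 4 h means for 521 of the 586 lower genes and for 296 of the 343 higher ones. At 3 h the lower genes had completed a median of 67.3% of their fall, and the higher genes 56.1% of their rise. At 3 h, 109 higher genes (31.8%) had reached 75% or more of the 4 h change, 163 between 25% and 75%, and 71 (20.7%) under 25%. Of the lower genes 240 (41%) had reached 75% or more, 316 between 25% and 75%, and 30 (5.1%) under 25%. Since the 2 h and 4 h means define the change, these shares are a description and were not tested. The insulin-like gene ins-2 shows an intermediate course, with 3.32, 3.01 and 3.06 at 2 h, 5.85, 8.78 and 8.09 at 3 h and 9.69, 9.65 and 10.32 at 4 h. Its 3 h arrays were the least alike of the times, and it rose by 6.76 ± 0.21 in all (limma adjusted p = 3.00e-05).

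Many of the largest changes were in genes without a functional name. Y106G6D.2 had the largest fall of all genes, from 10.40, 9.77 and 9.46 at 2 h to 2.39, 3.37 and 2.70 at 4 h. Y71A12B.11 read 10.96, 11.24 and 10.83 at 2 h and 4.20, 4.31 and 4.80 at 4 h. T02E9.5 rose from 5.46, 5.40 and 5.06 at 2 h to 10.22, 9.80 and 10.13 at 3 h and 11.04, 11.24 and 11.30 at 4 h. None of the 3 had overlapping times, and limma's differences were -7.06, -6.57 and 5.89. Genes with such names made up 39.2% of all tested genes, 37.9% of the lower and 35.3% of the higher ones.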

How the data were processed

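Per the labels' protocols, 15 RNA samples, 3 at each of 5 hours, went to Affymetrix C. elegans arrays. The authors deposited 1 log2 value per array and probe set. The submitters' processing notes name RMA, without a version, and the log2 scale was taken from the range of the values, 1.77 to 14.2. RMA corrects background, normalizes between arrays and summarises probes, and compresses low values. Titles set the groups. For 1 h B and 1 h C they disagree with time tags of 2 h and 3 h. Columns of no sample numbered 0. No depth applies to arrays, and 3 arrays per time limit the precision.

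Control probe sets (77) were not tested. Of the 22548 others, 20810 had 1 gene symbol in the platform annotation, 843 several and 895 none, and symbols were updated through the WBcel235 gene table, which was also used for gene order. Where several probe sets carried a symbol alone, the one with the highest 6-array mean stood for the gene, giving 17138 genes. The 6 arrays were fitted with limma 3.58.1 (lmFit and eBayes) under R 4.3.3, without covariates, and p-values were adjusted by Benjamini-Hochberg over all 22548 probe sets. The median standard error (SE) of a difference was 0.169, and levels carry the SD of 3 arrays where given. The fit was tested on simulated data. Replicate letters did not pair the arrays, as deviations of same-letter arrays correlated at -0.307, 0.038 and -0.105.

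The text names the 15 largest rises and 15 largest falls among called genes without overlap, with cosmid-style names in part, any member of the gene lists, and the injected genes. The comparison and its gene lists were chosen with earlier results of these data known. The btb, math, dsl, wrt, grd, grl, ins, cpg, skr, cullin, mcm, autophagy, mitochondrial ribosomal and rsp lists were added after values were seen. Lists are described by counts and medians, with no test of their own. The planned description of promoter motifs was not made, and no promoter sequence was used here. Alternatives to the fit, the arrays, the scaling, the filter and the threshold were run.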

Additional observations from a re-analysis of the deposited data

How the results depend on the processing

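The counts of called probe sets, 412 higher and 709 lower, depended on several choices. With array 1 h B placed at 2 h by its time tag there were 218 higher and 248 lower, and 11 early zygotic genes lower in place of 17. Centring arrays on the added control RNA left 143 higher, array weights gave 673 higher, and an adjusted p under 0.01 left 190 higher and 393 lower. Leaving out each array in turn gave 231 to 390 higher and 461 to 882 lower, the lowest counts coming without 2 h B (248 and 461) and 2 h C (231 and 475). With the replicate letter as a block there were 243 higher and 506 lower, 18 early zygotic genes lower and 10 tissue regulators higher. Of the genes named, 6 lost their call under the block and 1 gained one. The early zygotic count ran from 16 to 19 under the other alternatives, and the tissue regulator count, 12, from 8 to 15 over all of them. Arrays 2 h A and 4 h C correlated least with their groups, and without both, an alternative chosen after seeing the data, 372 were higher and 743 lower. A second such alternative, a filter at the highest of all 27 bacterial controls, gave 397 and 768. The causes of these shifts were not tested.

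Of the genes named, those that changed sign were not called and lay near 0. With 1 h B at 2 h these were end-1 (-0.10), end-3 (-0.0878), tbx-35 (-0.208), eya-1 (0.412), fbxb-66 (0.67), lit-1 (0.0282) and pha-4 (0.25). Quantile normalization gave 0.022 for fbxb-66 and for lit-1, 0.148 for pha-4 and -0.00243 for tbx-35. Median centring gave -0.00862 for myo-3 and -0.0497 for tbx-35, and centring on the added control RNA -0.125 and -0.166. Ribosomal centring gave 0.014 for lit-1, array weights 0.0414 for fbxb-66, and leaving out both 2 h A and 4 h C 0.0989 for fbxb-66. Without single arrays pha-4 ran from -0.755 to 0.198, lit-1 from -0.136 to 0.15 and tbx-35 from -0.071 to 0.14.

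Among called genes named above, leaving out 1 array ended these calls: 2 h B or 2 h C for act-3, cps-6, ceh-40, clec-87 and fbxb-70, either or 4 h C for dsl-3 and unc-30, 2 h B or 4 h B for rpl-11.1, 2 h B or 4 h A for cyb-2.2, any 2 h array or 4 h A for cyb-2.1, and any 2 h array or 4 h C for act-4. sdz-27 and mcm-6 kept theirs only without 4 h B, mcm-5 only without 2 h A or 4 h B. Values at background hide further loss, as 7572 of 17138 genes had a 4 h mean at or under the mark.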

Other observations

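Genes of the mitochondrial ribosome, a group noticed after the values were seen, were higher at 4 h in a count above that of all genes. Of 59 mrpl and mrps genes 11 were called higher (18.6%) and 0 lower by limma, beside 2.00% and 3.42% over all genes. Of the 59, 57 had a difference above 0, and 37 were higher at an unadjusted p under 0.05. Their median difference was 0.90, beside 0.07 over all genes and 0.04 over the 62 listed cytosolic ribosomal protein genes. mrps-18B read 7.77, 7.73 and 7.84 at 2 h, 8.27, 7.88 and 7.96 at 3 h and 9.11, 9.10 and 8.95 at 4 h. Its 4 h arrays lay above all others, and it rose by 1.28 ± 0.11 (SE) (limma adjusted p = 0.00132). mrps-16 rose by 1.63 ± 0.19 (SE) and mrpl-50 by 1.44 ± 0.19. The calls were tied to the scale, as 0 of the 11 held with arrays centred on the added control RNA, 6 with arrays centred on their median and 10 with arrays centred on cytosolic ribosomal protein genes.

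Autophagy genes, also noticed afterwards, were called lower in 7 of 24 cases (29.2%) with 0 higher, beside 3.42% and 2.00% over all genes. The list median was -0.72. sepa-1, an autophagy receptor through which P granule components are cleared from somatic cells, read 9.20, 9.80 and 9.77 at 2 h, 6.09, 5.98 and 6.48 at 3 h and 3.70, 3.94 and 3.62 at 4 h. It fell by 5.84 ± 0.20 (SE) (limma adjusted p = 3.91e-05), with no overlap between any of the 3 times. epg-2, which acts with sepa-1 in that clearance, read 11.04, 11.15 and 10.96 at 2 h and 9.92, 9.73 and 9.79 at 4 h and fell by 1.23 ± 0.12 (SE). Of the 7 calls 3 held with arrays centred on the added control RNA and 1 with array 1 h B placed at 2 h. Of 8 rsp genes, which encode SR splicing factors, 3 were lower (37.5%) and all 8 had a difference below 0. Of these 3 calls 1 held with arrays centred on the added control RNA, 0 with array 1 h B placed at 2 h and 0 with the replicate block. lsy-27, a zinc-finger gene of the early embryo, read 10.12, 10.79 and 10.97 at 2 h and 5.98, 5.6 and 4.82 at 4 h and fell by 5.16 ± 0.35 (SE). hsp-12.2, a small heat shock protein gene, read 3.55, 3.70 and 3.39 at 3 h and 8.29, 7.61 and 7.92 at 4 h and rose against 2 h by 4.47 ± 0.19.

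Genes that fell often lay next to each other. In the order of 16226 genes placed on the chromosomes, 138 of 570 lower genes (24.2%) had an adjacent lower gene, beside 941 of the 15656 other genes (6.01%). Of the higher genes 26 of 341 (7.6%) had an adjacent higher gene, beside 4.08% of the others. Among the 138, 39 had a neighbour of the same named class. There were 11 runs of at least 3 adjacent lower genes and 0 of higher ones. One run of 5 held fbxb-105, sdz-10 and sdz-9, another btb-6, fbxb-48, fbxb-5, btb-8 and fbxb-11, and a run of 3 held skr-13, skr-9 and skr-8. Near-identical neighbours can share probes, and the part of this in the counts was not tested.

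Other groups gave few calls, to be read beside 2.00% higher and 3.42% lower over all genes. Among genes added after values were seen, 0 of 47 math genes were called by limma and 0 passed an unadjusted p under 0.05, and 46 of the 47 had a 2 h mean at background. Of 52 wrt, grd and grl genes, of the hedgehog-related families, wrt-10 rose by 3.95 and grl-11 fell by 4.50. Of 23 ins genes ins-2 was higher and ins-34 lower, and of 12 cpg genes 2 were higher and 1 lower. Of 7 mcm genes 2 were lower (28.6%). Of 7 Notch and 16 Wnt components 0 were called by limma, and 4 passed an unadjusted p under 0.05, all lower. Of 12 chaperone and stress genes hsp-90 was lower, by 1.52 ± 0.30. Its call was lost with arrays centred on the added control RNA or on their median, with array 1 h B placed at 2 h and with the replicate block, and its other probe set, at -1.78 (adjusted p = 0.0584), did not pass the threshold.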
